A study of Mus musculus with 16 samples.

Results

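The respiratory chain is described here through 112 of the 38293 genes in the count files, 99 encoded in the nucleus and 13 in mitochondrial DNA. Members were taken by symbol. The nuclear ones begin with Nduf, Uqcr, Atp5 or Cox4 to Cox8, or are Sdha, Sdhb, Sdhc, Sdhd, Cyc1 or Cycs, and the mitochondrial ones begin with mt-Nd, mt-Co, mt-Cytb or mt-Atp, with pseudogenes left out. The symbol rule also takes in complex I assembly factors (Ndufaf genes), tissue isoforms and gene copies, which are kept apart below. Their RNA was compared between 2 mouse lymphoid lines, P6D4 and 70Z/3, with 3 RNA-Seq libraries each, and their gene ends were searched for Miz1, a DNA-binding zinc finger protein, in 1 ChIP-Seq peak list per line.

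The label of P6D4 is SCID.adh murine thymic lymphoma of stage DN3, an early thymocyte stage; 70Z/3 is labelled as a lymphoblast at the pre-B stage. No treatment or engineered change is given for either, and each group is a single line, so lineage, tumour history and line cannot be told apart. The labels name no separate cultures for the 3 libraries of a line, so the p-values speak for the spread among these libraries alone. Gene counts summed to 48.3 to 54.8 M per P6D4 library and 45.5 to 48.9 M per 70Z/3 library. The lines matched their labels by lineage markers: all 8 pre-B markers were lower in P6D4 (summed level 0.759 to 1.32 CPM, which is counts scaled to equal library totals, against 1870 to 1920) and all 8 early thymocyte markers were higher (3600 to 3710 against 35.6 to 36.4 CPM). Markers of striated muscle, brown fat and testis, tissues that use other subunit isoforms, summed to 0.0901 to 0.171 CPM in P6D4 and 0.511 to 0.8 in 70Z/3, and 3 of those 7 genes had no count in any library. Myeloid markers summed to 29.7 to 36.6 CPM in P6D4 and 26.0 to 27.1 in 70Z/3. Of the 4 myeloid markers tested, 1 was higher and 3 lower in P6D4. Erythroid and stromal markers summed to at most 5.92 CPM each.

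The respiratory chain passes electrons from NADH (complex I) or succinate (complex II) through coenzyme Q, complex III and cytochrome c to oxygen at complex IV, and complex V uses the proton gradient so built to make ATP. Complex II is wholly nuclear; the other complexes combine nuclear subunits with a few encoded in mitochondrial DNA, which is transcribed from both strands as long precursors and cut into single RNAs. Many nuclear subunit genes are known to have promoter sites for NRF1 and for ETS-type factors such as GABP.

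These promoter sequences could be read for 77 of the 99 nuclear members, in RefSeq windows (GRCm38.p6) from 250 bases before to 50 after a transcription start. The NRF1-type motif GCGCANGCGC, searched on both strands, was found in 19 of 77 members (24.7%) and in 5.19% of all 27025 genes with a window. Those 27025 were not limited to protein-coding genes, of which 17492 on the numbered and sex chromosomes had a window. The members are protein-coding, so the motif shares compare unlike sets of genes. The ETS-type motif CCGGAAG was found in 18 members (23.4%) and 9.93% of all genes. Both were found in 4 members and at least 1 in 33. The 100 bases before the start are shown for Atp5g2, which has the full palindrome GCGCATGCGC, for Sdhd, which has both motifs, for Uqcr11, which has the ETS-type motif, and for Cox7a1, a muscle-type isoform gene without a match. Capitals mark the matches, and the strand printed is that of the gene.
Atp5g2 (chr15:102671048-102671147, minus strand): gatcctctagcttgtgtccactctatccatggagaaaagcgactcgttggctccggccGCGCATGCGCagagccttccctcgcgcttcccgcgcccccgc
Sdhd (chr9:50603850-50603949, minus strand): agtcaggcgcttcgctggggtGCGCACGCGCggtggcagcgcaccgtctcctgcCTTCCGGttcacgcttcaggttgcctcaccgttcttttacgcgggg
Uqcr11 (chr10:80406822-80406921, minus strand): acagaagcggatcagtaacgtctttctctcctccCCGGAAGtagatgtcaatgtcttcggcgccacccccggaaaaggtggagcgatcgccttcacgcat
Cox7a1 (chr7:30184071-30184170, plus strand): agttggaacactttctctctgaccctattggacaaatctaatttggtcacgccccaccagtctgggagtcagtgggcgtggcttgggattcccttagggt
These 4 genes differ in direction between the lines. Atp5g2, Sdhd and Uqcr11 were higher in P6D4, by 1.00, 0.44 and 1.28 on the log2 scale, and Cox7a1 was lower, with a log2 fold change of -7.18. Of the 19 members with the NRF1-type motif, 11 were higher in P6D4 and 4 lower by the test described below. Of the 18 with the ETS-type motif, 13 were higher and 2 lower. Over all tested members 56.4% were higher and 22.8% lower, and over all tested genes 43.3% and 43.2%; whether members with a motif differ from those without was not tested. Nrf1 RNA was at 82.8 ± 2.36 CPM in P6D4 and 83.1 ± 0.442 in 70Z/3 (SD, n = 3; edgeR adjusted p = 0.900), and Gabpa, the DNA-binding GABP subunit, at 144 ± 3.30 and 136 ± 4.09 CPM (edgeR adjusted p = 0.054); neither was called. The genes of the partner subunits of GABP were lower in P6D4, Gabpb1 at 51.9 ± 0.784 against 77.5 ± 1.57 CPM (-0.58 ± 0.04, edgeR adjusted p = 3.32e-09) and Gabpb2 at 236 ± 3.63 against 281 ± 13.3 CPM (-0.25 ± 0.04, edgeR adjusted p = 2.58e-05). These 4 were named for their role, outside the rule for the lists.

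Most subunits of the chain were modestly higher in P6D4. A gene was called when its Benjamini-Hochberg adjusted p from edgeR's quasi-likelihood test over all tested genes was under 0.05. Of the 112 members, 101 passed the filter on low counts. In P6D4, 57 of them (56.4%) rose, 23 (22.8%) fell and 21 were not called. Of those 21, 3 are mitochondrial genes with under 20 counts in every library. Over all 13750 genes tested, 43.3% were higher and 43.2% lower. The members' median log2 fold change was 0.20 against 0.01 for all genes tested, and their median size of change, whatever the sign, was 0.34 against 0.67. The libraries of the 2 lines did not overlap for 59 members above (43.8% of all genes) and 22 below (43.6%). Members were also well counted, with a median level of 93.1 CPM against 27.9 for all genes tested.

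**Figure D1:**
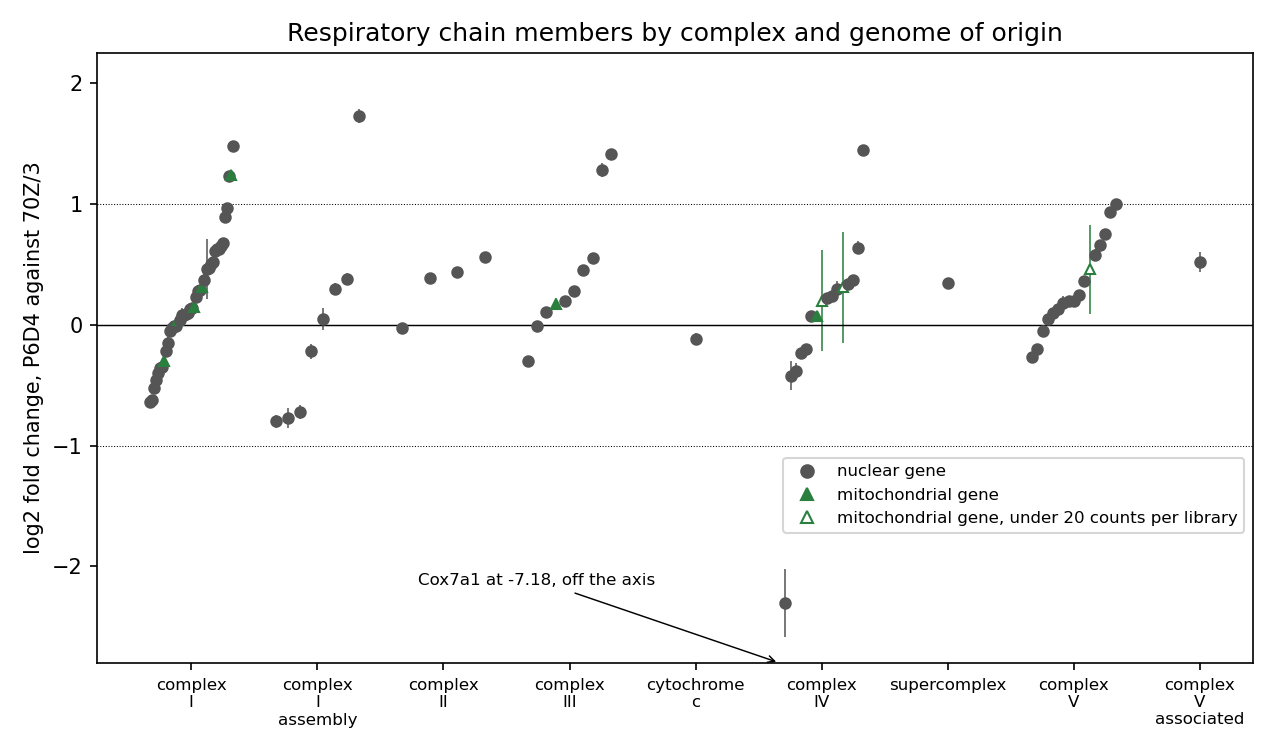
Log2 fold change of each tested member between P6D4 and 70Z/3 (vertical axis; bars are the standard error) by complex (horizontal axis), with nuclear genes as circles and mitochondrial genes as triangles, open where no library reached 20 counts. Most points lie between -1 and 1 (dotted lines), more of them above 0 than below, and the highest is the assembly factor Ndufaf1 at 1.73.

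In size, 7 members were more than 2-fold higher in P6D4 by a test against that fold (edgeR glmTreat; 16.6% of all genes), and 2 more than 2-fold lower (18.6% of all genes). Ndufaf1, an early complex I assembly factor (chr2:119655446-119662839), was at 28.9, 28.4 and 30.7 CPM in the P6D4 libraries and 8.77, 9.10 and 8.71 in the 70Z/3 libraries. Ndufb9, a membrane-arm subunit of complex I (chr15:58933801-58939516), was at 227, 225 and 222 against 81.0, 81.3 and 79.7 CPM. Cox6c, a structural subunit of complex IV (chr15:35931976-35938246), was at 341, 319 and 307 against 120, 118 and 116 CPM. In these 3 genes every P6D4 library stood far above every 70Z/3 library, and the spread within a line was small. Cyc1, the cytochrome c1 heme protein of complex III (chr15:76343513-76346260), was at 384, 360 and 363 against 131, 144 and 141 CPM. Uqcr11, a small complex III subunit (chr10:80402997-80406821), was at 131, 122 and 119 against 46.3, 54.1 and 53.4 CPM, and Ndufs7, an iron-sulfur subunit of complex I (chr10:80249105-80256794), at 109, 110 and 108 against 44.0, 47.7 and 47.8 CPM. The log2 fold changes were 1.73 ± 0.06 for Ndufaf1, 1.48 ± 0.03 for Ndufb9, 1.45 ± 0.04 for Cox6c, 1.41 ± 0.04 for Cyc1, 1.28 ± 0.06 for Uqcr11 and 1.23 ± 0.04 for Ndufs7 (± SE throughout for log2 fold changes; edgeR adjusted p at most 6.73e-11). The 7th is mt-Nd6, and the lower pair is Cox7a1 and Ndufa4l2, all described below.

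In complex I, 42 members were tested: 22 were higher in P6D4, 9 were lower and 11 were not called (median 0.13). Of the 7 nuclear core subunits, which carry the flavin and iron-sulfur centres, 5 were higher and 2 lower. Besides Ndufs7, Ndufv1, which binds NADH, rose by 0.63 ± 0.04, Ndufs3 by 0.47 ± 0.04 and Ndufv2 by 0.29 ± 0.03. The iron-sulfur subunits Ndufs1 and Ndufs8 were lower, at -0.36 ± 0.03 and -0.40 ± 0.04 (edgeR adjusted p at most 1.19e-06 for these 5). Among the 29 accessory subunits, 14 were higher, 6 lower and 9 not called. After Ndufb9, the highest were Ndufa6 at 0.97 ± 0.04 and Ndufa7 at 0.89 ± 0.04, and the lowest were Ndufa9 at -0.64 ± 0.04, Ndufb3 at -0.62 ± 0.04 and Ndufb10 at -0.52 ± 0.03. Ndufa9, which lies at the junction of the matrix and membrane arms, was at 114, 113 and 107 CPM in P6D4 and 167, 178 and 176 in 70Z/3, with no overlap. The 9 accessory subunits not called were Ndufv3, Ndufs5, Ndufa5, Ndufb11, Ndufc2, Ndufb7, Ndufa3, Ndufb4 and Ndufb5, with log2 fold changes from -0.15 to 0.09.

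The 8 complex I assembly factors split: Ndufaf1, Ndufaf7 (0.38 ± 0.05) and Ndufaf3 (0.30 ± 0.05) were higher, Ndufaf4 (-0.80 ± 0.05), Ndufaf2 (-0.77 ± 0.08), Ndufaf5 (-0.72 ± 0.06) and Ndufaf6 (-0.22 ± 0.06) were lower, and Ndufaf8 was not called (edgeR adjusted p = 0.624). Ndufaf1 and Ndufaf4, which build different parts of the complex, lay at the ends. Ndufaf4 was at 42.3, 40.0 and 39.6 CPM in P6D4 and 66.9, 73.0 and 71.9 in 70Z/3. The direction thus differed between Ndufaf genes within the same libraries.

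In complex II, which oxidises succinate, Sdhc (0.56 ± 0.03), Sdhd (0.44 ± 0.04) and Sdhb (0.39 ± 0.04) were higher in P6D4 (edgeR adjusted p at most 1.13e-06). Sdhc and Sdhd anchor the complex in the membrane and Sdhb carries its iron-sulfur centres. Sdha, the flavoprotein that binds succinate, was at 344, 337 and 332 CPM in P6D4 and 345, 350 and 341 in 70Z/3, a difference of -0.03 ± 0.03 that was not called (edgeR adjusted p = 0.346).

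In complex III, 8 of 10 members rose in P6D4, 1 was lower and 1 was not called. Below Cyc1 and Uqcr11 came the Rieske iron-sulfur protein Uqcrfs1 at 0.55 ± 0.03, then Uqcr10 at 0.45 ± 0.04 and the core protein gene Uqcrc2 at 0.28 ± 0.04. The 2 other nuclear subunits called higher were Uqcrh (0.20 ± 0.03) and Uqcrc1 (0.11 ± 0.04). Uqcrb was the lower member, at 55.4, 51.9 and 50.6 CPM in P6D4 against 64.1, 66.7 and 62.9 in 70Z/3 (-0.30 ± 0.04, edgeR adjusted p = 2.54e-05). Uqcrq was not called (-0.01 ± 0.04). Cycs, somatic cytochrome c, differed by -0.12 ± 0.05 on the log2 scale (edgeR adjusted p = 0.0449), but its libraries overlapped (97.9, 89.3 and 84.2 against 94.3, 103 and 98.0 CPM) and its adjusted p ran from 0.0016 to 0.226 over the 13 alternative settings, with the call lost in 7 of them.

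In complex IV, 7 of 17 tested members were higher, 6 lower and 4 not called. Among those 4, mt-Co2 and mt-Co3 had under 20 counts in every library. After Cox6c, the highest were Cox7c (0.64 ± 0.05) and Cox7b (0.37 ± 0.04), and Cox6b1, Cox8a, Cox7a2 and Cox4i1 rose by 0.22 to 0.34. Cox5a, Cox6a1 and Ndufa4, a subunit first assigned to complex I, were lower at -0.23 ± 0.04, -0.20 ± 0.04 and -0.38 ± 0.06, and the other 3 lower members are isoforms described below. Cox5b was not called (0.07 ± 0.04, edgeR adjusted p = 0.158). Cox7a2l, which helps join complexes III and IV into supercomplexes, was at 110, 115 and 110 CPM in P6D4 and 89.8, 85.0 and 87.9 in 70Z/3 (0.35 ± 0.04, edgeR adjusted p = 8.38e-07).

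In complex V, ATP synthase, 17 members were tested. Of these, 12 rose in P6D4, 2 fell and 3 were not called, among them mt-Atp6 with under 20 counts in every library. The 2 subunits that form the catalytic head of complex V went differently. Atp5b, the beta subunit with the catalytic sites, was at 2880, 2720 and 2690 CPM in P6D4 and 1380, 1500 and 1460 in 70Z/3, without overlap (0.93 ± 0.04, edgeR adjusted p = 3.23e-11). Atp5a1, the alpha subunit that alternates with it, was at 1260, 1190 and 1170 against 1120, 1200 and 1180 CPM, and the libraries overlapped (0.05 ± 0.04, edgeR adjusted p = 0.212). Of the central stalk, Atp5d (delta) rose by 0.75 ± 0.04, Atp5e (epsilon) by 0.20 ± 0.04 and Atp5c1 (gamma) by 0.13 ± 0.03. Subunit c, which forms the rotor ring, is encoded by 3 genes that make the same mature protein; all 3 were higher, Atp5g2 by 1.00 ± 0.04, Atp5g3 by 0.58 ± 0.05 and Atp5g1 by 0.18 ± 0.06. Atp5j2 and Atp5o were lower, at -0.27 ± 0.04 and -0.20 ± 0.03, and Atp5j was not called (-0.05 ± 0.03). The coupling factor gene Atp5s, which is not a core subunit, rose by 0.52 ± 0.08.

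Summed over a complex, the nuclear members' RNA was higher in every P6D4 library than in every 70Z/3 library for complexes I to V, and lower in every one for the Ndufaf assembly factors. Nuclear complex III members summed to 1650 ± 48.1 CPM in P6D4 and 1170 ± 34.5 in 70Z/3 (SD, n = 3), and nuclear complex V members to 6340 ± 201 and 4560 ± 161 CPM. Complex II summed to 958 ± 21.2 and 793 ± 12.8 CPM, nuclear complex IV to 2060 ± 79.0 and 1760 ± 49.1, nuclear complex I to 3150 ± 59.6 and 2800 ± 44.5, and the assembly factors to 173 ± 4.86 and 188 ± 7.10. Single genes weigh heavily in these sums. Mean CPM in P6D4 and 70Z/3 was 2760 and 1450 for Atp5b, 323 and 118 for Cox6c, and 369 and 138 for Cyc1. By gene, nuclear members called higher and lower numbered 7 and 6 in complex IV, 7 and 1 in complex III, and 12 and 2 in complex V. In bulk RNA, fewer expressing cells and less RNA per cell cannot be told apart.

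Mitochondrially encoded and nuclear subunit RNA both took a larger share in P6D4. The 13 mitochondrial members took 2.47, 2.44 and 2.28% of gene counts in the P6D4 libraries and 2.2, 2.16 and 2.12% in the 70Z/3 libraries. Nearly all of those counts came from 7 of the 13. The 99 nuclear members took 1.52, 1.46 and 1.43% against 1.10, 1.16 and 1.15%. All P6D4 libraries were above all 70Z/3 libraries in both shares, and the ratio of mitochondrial to nuclear member counts was 1.63 ± 0.0414 in P6D4 and 1.91 ± 0.0808 in 70Z/3 (SD, n = 3), lower in each P6D4 library than in any 70Z/3 library. Without the members of chromosomes 10 and 15 the ratio was 2.34, 2.39 and 2.28 in P6D4 and 2.46, 2.32 and 2.28 in 70Z/3, and the lines overlapped. These chromosomes were chosen after their values were seen. Leaving out nuclear genes that are mostly higher in P6D4 must move the ratios this way, so the source of the difference was not tested. With 3 libraries against 3, a two-sided exact permutation test cannot pass the threshold, so none is given for these shares.

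Of the 10 mitochondrial members tested, 4 rose in P6D4, 1 fell and 5 were not called. Of those 5, mt-Co2, mt-Co3 and mt-Atp6 had under 20 counts in every library. Of the 7 with over 1000 counts in every library, 4 rose, 1 fell and 2 were not called. On the scale of CPM per kilobase of gene, mt-Nd1 was at 5230 ± 248 in P6D4 and 4720 ± 98.0 in 70Z/3, and mt-Co1, the catalytic subunit of complex IV, at 4970 ± 272 and 4740 ± 177 (SD, n = 3). Cytochrome b (mt-Cytb) followed at 3560 ± 253 and 3170 ± 95.5, then mt-Nd2 at 3210 ± 13.9 and 2590 ± 37.5, mt-Nd5 at 1420 ± 48.5 and 1380 ± 46.7, mt-Nd4 at 682 ± 34.1 and 838 ± 21.4, and mt-Nd6 at 129 ± 4.33 and 54.2 ± 1.91. In each line mt-Nd1 and mt-Co1 differed by no more than their spread, and the other neighbours in this order did not overlap between libraries. The closest were mt-Cytb and mt-Nd2 in P6D4, at 3820, 3560 and 3310 against 3230, 3210 and 3200. The log2 fold changes were 0.31 ± 0.03 for mt-Nd2, 0.17 ± 0.05 for mt-Cytb, 0.15 ± 0.04 for mt-Nd1 and -0.30 ± 0.04 for mt-Nd4 (edgeR adjusted p at most 0.00424); mt-Co1 (0.07 ± 0.04) and mt-Nd5 (0.04 ± 0.04) were not called.

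Among the 7 mitochondrial members with over 1000 counts in every library, the largest difference was in mt-Nd6, the one subunit encoded on the light strand (MT:13552-14070). It was at 64.8, 69.2 and 66.1 CPM in P6D4 and 27, 29 and 28.4 in 70Z/3, with no overlap (1.24 ± 0.04, edgeR adjusted p = 5.96e-12). Its bounds share their first bases, to position 13565, with mt-Nd5 on the other strand, whose counts did not move with it. No source used here states whether counting used strand, and the strand of the mt-Nd6 counts was not tested.

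**Figure D2:**
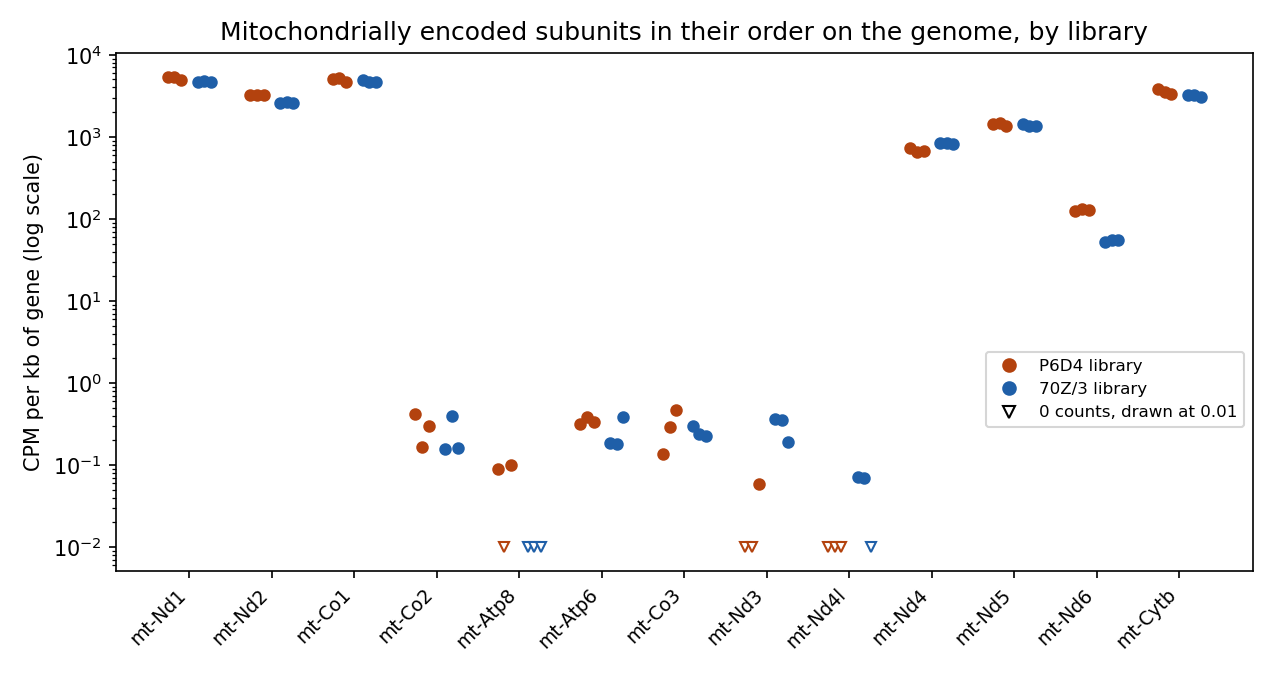
CPM per kilobase of gene on a log scale (vertical axis) for the 13 mitochondrially encoded subunits in their order on the genome (horizontal axis), 1 point per library; open triangles are libraries without a count. A run of 6 neighbours, mt-Co2 to mt-Nd4l, lies at or under 0.471 CPM per kilobase in both lines, while the genes on either side lie at 52.1 or more.

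A run of 6 adjacent mitochondrial genes was almost without counts in all 6 libraries. Of mt-Co2, mt-Atp8, mt-Atp6, mt-Co3, mt-Nd3 and mt-Nd4l (MT:7013-10173), none exceeded 18 counts in any library, although the neighbouring mt-Co1 had at least 322442 and mt-Nd4 at least 45006. Their RNAs come from the same heavy-strand precursor as those neighbours and encode essential subunits of complexes I, IV and V. The RefSeq table lists under the symbol Gm10925 a 681-base pseudogene on chr1 (chr1:24613971-24614651), with mt-Atp6 among its synonyms and the same length as mt-Atp6, and beside it Gm10222, as long as mt-Nd4l (297 bases). Gm10222 had no count in any library, and Gm10925 is not in the count files. Reads that align in several places were not assigned to genes by HTSeq; such alignments numbered 1.12 ± 0.0220 per gene count in P6D4 and 1.43 ± 0.0168 in 70Z/3. Their part in the low counts was not tested. Levels of these 6 genes are therefore not read as expression: mt-Co2 (0.31 ± 0.46), mt-Atp6 (0.46 ± 0.37) and mt-Co3 (0.20 ± 0.42) were not called, mt-Nd3 had 1 count in P6D4 and 15 in 70Z/3 in all, mt-Nd4l 0 and 2, and mt-Atp8 2 and 0.

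Isoform genes of complex IV, which replace the common subunits in muscle, lung or testis, held both falls of over 2-fold. Cox7a1, the heart and muscle form of subunit 7a (chr7:30184171-30186030), had 7, 3 and 5 counts in the P6D4 libraries and 730, 601 and 662 in the 70Z/3 libraries, or 0.0952 ± 0.0352 against 14.2 ± 1.59 CPM (SD, n = 3). Its log2 fold change was -7.18 ± 0.19 (edgeR adjusted p = 2.36e-13), and its partner Cox7a2 rose by 0.24 ± 0.04. The 7 marker genes of muscle, brown fat and testis summed to less than 1 CPM in each library, as given above. The 1 of them that could be tested, Myh6, was also lower in P6D4 (-5.32 ± 0.52, edgeR adjusted p = 3.65e-07). It was at 0.018, 0.019 and 0 CPM in P6D4 and 0.489, 0.559 and 0.777 in 70Z/3. Cox4i2, the lung form of subunit 4, had 0, 1 and 0 counts in P6D4 and 10, 8 and 10 in 70Z/3. This was below the filter, and the ratio of 30.6 in favour of 70Z/3 has an exact 95% counting interval of 5.06 to 1250. Cox4i1, the common form, was at 339, 337 and 328 CPM in P6D4 and 282, 291 and 290 in 70Z/3 (0.22 ± 0.03).

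Ndufa4l2, a paralog of Ndufa4 known to respond to low oxygen (chr10:127509274-127517154), had 16, 14 and 6 counts in P6D4 and 59, 42 and 59 in 70Z/3 (-2.3 ± 0.28, edgeR adjusted p = 3.66e-06); its bounds overlap Shmt2. Cox6a2, the muscle form of subunit 6a, was at 17.6, 19.5 and 15.8 CPM in P6D4 and 29.0, 19.4 and 22.7 in 70Z/3, where the lines overlapped (-0.42 ± 0.12, edgeR adjusted p = 0.00446), and its bounds overlap Itgad. Because use of strand in counting is unknown, counts of overlapping genes can be mixed. Only 3 of the 8 alternative isoforms passed the filter on low counts, and each of the 3 was called lower. Over all tested genes 43.2% were lower, and the isoforms were not tested as a set. Of the 3, Cox7a1 alone had separate lines and no overlapping gene. The other isoform genes were barely counted: Cox6b2 had 4 counts in all libraries together, Cox7b2 had 1, and Cox8b and Cox8c had 0. Of the gene copies, Ndufs6b was tested and not called (0.46 ± 0.25, edgeR adjusted p = 0.100), Ndufa11b and Cox6c2 had at most 2 counts in any library and Ndufb4c had 0.

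**Figure D3:**
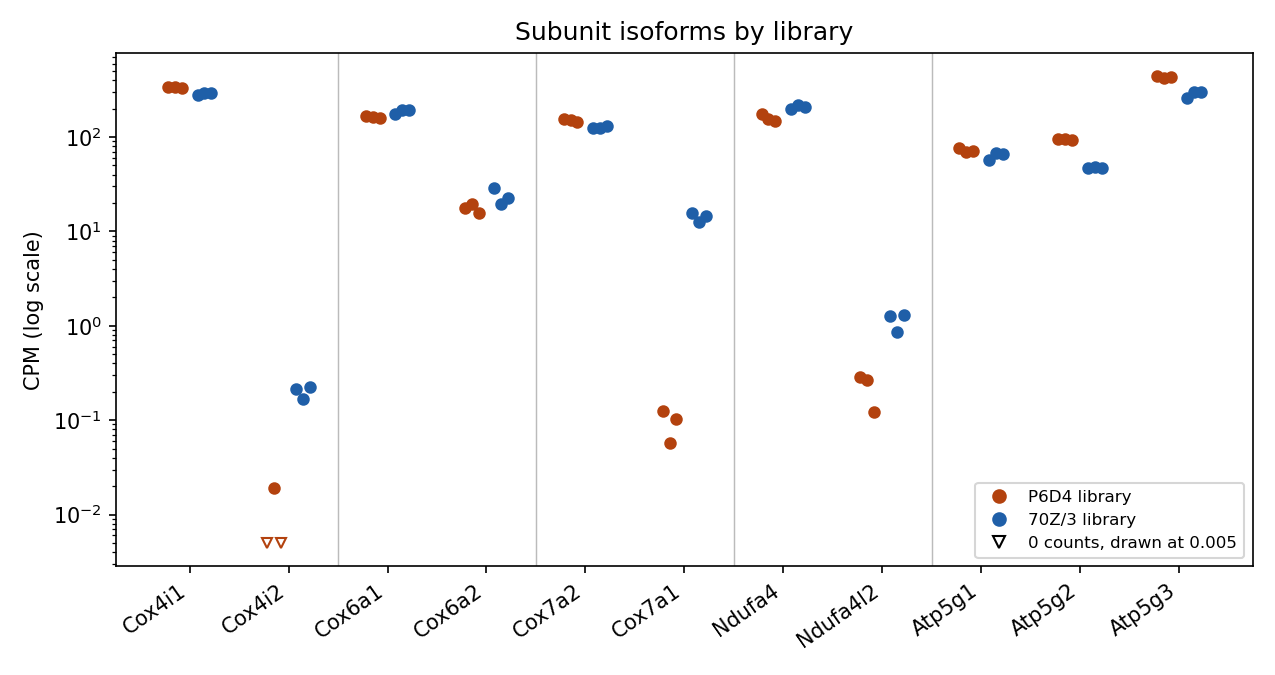
CPM on a log scale (vertical axis) of common and alternative subunit isoforms (horizontal axis; lines separate the families), 1 point per library; open triangles are libraries without a count. Cox4i2, Cox7a1 and Ndufa4l2 are lower in every P6D4 library than in any 70Z/3 library, and the 3 subunit c genes Atp5g1, Atp5g2 and Atp5g3 are higher.

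Members on the same chromosome tended to differ the same way, as did its other genes. On chromosome 15, all 5 tested members were higher in P6D4: Ndufb9, Cox6c, Cyc1, Atp5g2 and Ndufa6, from 0.97 to 1.48 on the log2 scale. The median of the 485 other tested genes of that chromosome was 0.89. On chromosome 10, with a median of 0.45 over 638 other genes, 5 of 6 were higher (Uqcr11, Ndufs7, Atp5b, Atp5d and Ndufa12, from 0.65 to 1.28) and Ndufa4l2 was lower. Thus 5 of the 6 nuclear members more than 2-fold higher lie on these 2 chromosomes; Ndufaf1, on chromosome 2 with a median of 0.05, is the other. On chromosome 6, with a median of -0.51, 4 of 5 members were lower (Ndufa9, Ndufa4, Ndufb2 and Cycs) and Ndufa5 was not called. On chromosome 1, with a median of -0.48, 3 of 6 were lower (Ndufb3, Ndufs1 and Ndufa10), 2 higher and 1 not called. Over all tested genes, on any chromosome, 43.3% were higher, 43.2% lower and 16.6% more than 2-fold higher. Shares of called genes were not taken by chromosome.

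**Figure D4:**
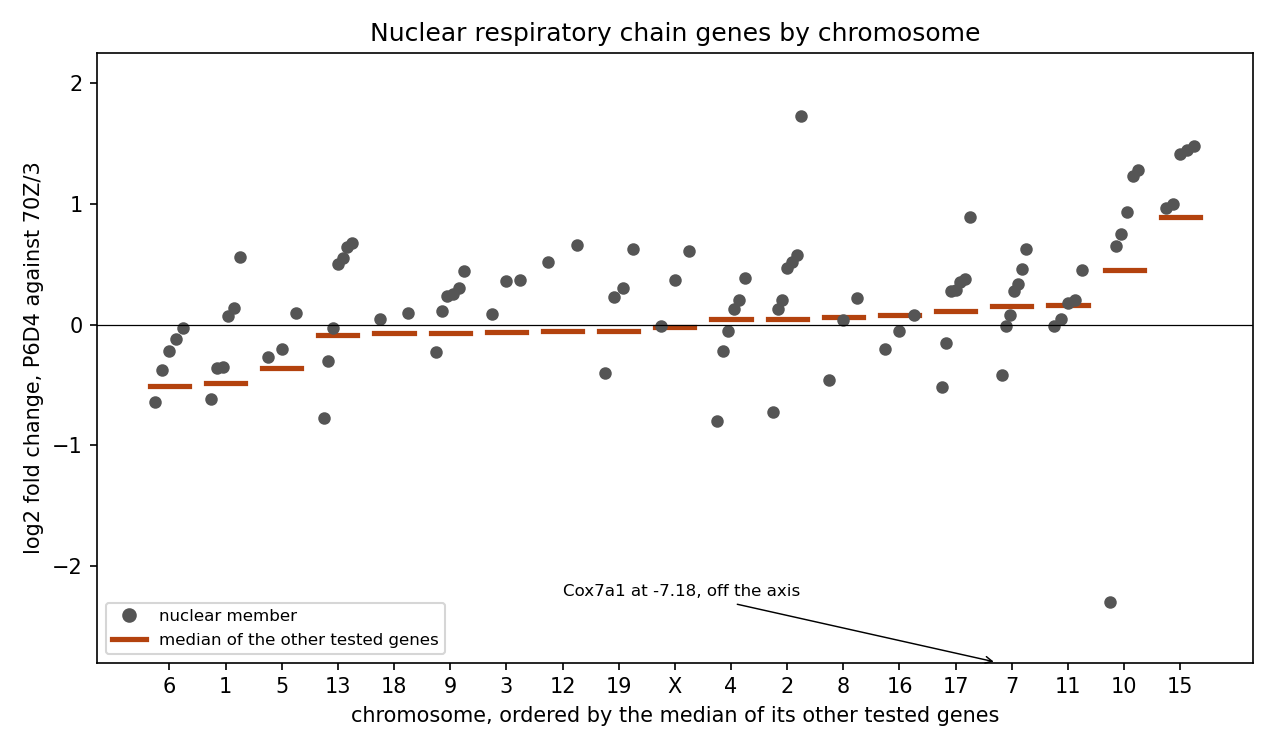
Log2 fold change of the 91 tested nuclear members (points, vertical axis) by chromosome (horizontal axis), ordered by the median of each chromosome's other tested genes (bars). Members on chromosomes 6 and 1 lie mostly below 0, and all 5 on chromosome 15 lie above its median of 0.89.

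Across the 91 tested nuclear members, the log2 fold change and the median of the other genes of the chromosome had a Spearman rho of 0.36, and of 0.24 over the 86 members outside chromosome 15. Members of a chromosome share its median, so these are descriptions; over all 13262 tested genes with a chromosome, rho was 0.21. Pearson's r was 0.25, and 0.61 without Cox7a1 and Ndufa4l2. After subtracting the chromosome's median, the median log2 fold change of the members went from 0.20 to 0.17, and 68 members lay above their chromosome's median and 23 below. Chromosomes 10 and 15 were then left out, a choice made after their values were seen. Of the 80 nuclear members that remained, 43 were higher (53.8%), 21 lower (26.2%) and 16 not called. Over all tested genes, on any chromosome, 43.3% were higher and 43.2% lower. Their share of gene counts was 1.02 ± 0.0288% in P6D4 and 0.919 ± 0.0230% in 70Z/3 (SD, n = 3). The 5 tested members of chromosome 15 took 0.113 ± 0.00319% against 0.0432 ± 0.000424%, and those of chromosome 10 took 0.335 ± 0.0115% against 0.171 ± 0.00708%.

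Genes that build or serve the chain were taken from lists drawn up for it. Beside each count below stands the share over all tested genes, of which 43.3% were higher and 43.2% lower, with a median of 0.01. No list was tested as a set. Of 50 other assembly factors tested, 19 were higher, 22 were lower and 9 did not pass (median 0.01), near the shares over all genes. Nubpl, which inserts iron-sulfur clusters into complex I, rose by 1.69 ± 0.08, and Cox14 by 0.83 ± 0.04. Ecsit, another complex I assembly factor, was lower at -1.50 ± 0.04, as was the complex II factor Sdhaf3 at -1.04 ± 0.06. Of 34 genes for mitochondrial DNA upkeep and transcription, 17 were higher and 15 lower (median 0.03), also near those shares. Tfam, which packages mitochondrial DNA, was at 139 ± 3.41 CPM in P6D4 and 86.2 ± 0.777 in 70Z/3 (SD, n = 3), and Polrmt, its RNA polymerase, at 66.8 ± 2.72 and 56.3 ± 3.65. Both lie on chromosome 10 and were chosen after their values were seen. Polg2 (1.00 ± 0.08) and Mgme1 (0.99 ± 0.05) were the highest, and Fastkd2 (-0.95 ± 0.06) and Top1mt were the lowest. Top1mt, the mitochondrial topoisomerase, had 0.0442 ± 0.0286 CPM in P6D4 and 8.86 ± 0.281 in 70Z/3, although it lies on chromosome 15.

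Among 19 tested regulators of respiratory genes, 7 were higher and 6 lower (median 0.08), against 43.3% and 43.2% of all tested genes. Esrrg, an orphan nuclear receptor that activates oxidative genes in muscle, was at 21.6, 23.0 and 23.4 CPM in P6D4 and 0.170, 0.145 and 0.0888 in 70Z/3 (7.36 ± 0.14, edgeR adjusted p = 4.27e-15). Perm1, a muscle regulator induced by such receptors, had 288 counts in P6D4 and 2 in 70Z/3, a ratio of 132 with an exact 95% counting interval of 36.1 to 1090. Creb1 and Mtor were the lowest, at -0.87 ± 0.03 and -0.65 ± 0.04. The coactivator gene Ppargc1a, named here after its values were seen, had 2 counts in all 6 libraries.

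Of 25 tested genes of the citric acid cycle and pyruvate entry, 13 were higher and 6 lower (median 0.19). Over all tested genes 43.3% were higher and 43.2% lower, here and for the 2 lists that follow. Idh2, mitochondrial isocitrate dehydrogenase, was at 207, 207 and 203 CPM in P6D4 and 0.149, 0.186 and 0.0222 in 70Z/3, the largest difference in these lists (10.70 ± 0.11, edgeR adjusted p = 1.43e-17). Dld and Pcx were lower at -0.73 ± 0.04 and -0.73 ± 0.09. Of 12 antioxidant enzyme genes, 7 were higher and 3 lower, with Gsr at 1.67 ± 0.06 and Txn2 at 1.09 ± 0.04 on the high side and Gpx1 at -1.64 ± 0.05 and Glrx2 at -0.18 ± 0.04 on the low side. Of 21 genes for coenzyme Q synthesis and electron entry, 14 were higher and 5 lower (median 0.24). Sqor, which feeds electrons from sulfide to coenzyme Q, had 361 counts in P6D4 and 1 in 70Z/3 (ratio 330, 95% counting interval 58.9 to 13100), and Prodh, proline dehydrogenase, had 135 and 1 (ratio 124, interval 21.8 to 4910). Coq8a and Coq10b were the lowest, at -2.85 ± 0.12 and -0.59 ± 0.06.

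Miz1 was found at the end of few members. A member was counted when a peak summit lay within 1 kb of either end of its RefSeq bounds, since those give no strand. In the P6D4 list this held for 1 of 96 protein-coding nuclear members (1.04%, Clopper-Pearson 95% interval 0.0264 to 5.67%; 1.08% of 21887 protein-coding genes), and in the 70Z/3 list for 5 of 96 (5.21%, interval 1.71 to 11.7%; 2.98% of genes). With 1 ChIP library per line there is no replicate check, and the lists differ in depth (2067731 and 4484034 ChIP tags), so they were not compared with each other.

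Ndufa5, an accessory subunit of complex I, was the member found in both lists. The authors' peak had a fold of 35.4 over local background in P6D4 (rank 31 of 21629 peaks) and 61.9 in 70Z/3 (rank 82 of 10462), with summits at 24527621 and 24527612 on chromosome 6. Each summit lay between a pair of RefSeq start sites of the gene, 69 and 95 bases from them in P6D4 and 78 and 86 in 70Z/3. The 30 bases around the summits hold ATCGA, a core of the sequence known for Miz1, once on each strand (capitals).
Ndufa5 (chr6:24527601-24527630, minus strand): actcaggggcagcATCGAcgcTCGATtgag
ATCGA, searched on both strands, was in the promoter windows of 4 of 77 members (5.19%) and 8.34% of all genes with a window. Those genes were again not limited to protein-coding ones. Ndufa5 RNA was at 37.0, 32.5 and 32.9 CPM in P6D4 and 33.4, 35.9 and 35.7 in 70Z/3; the lines overlapped and the gene was not called (-0.03 ± 0.06, edgeR adjusted p = 0.568).

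The other 4 members, Cyc1, Uqcrc2, Ndufa4l2 and Atp5g2, were found in the 70Z/3 list, with peaks of lower fold by the authors' values. The fold was 7.28 at Atp5g2, 6.08 at Ndufa4l2, 6.06 at Uqcrc2 and 5.82 at Cyc1, and the summits lay 80 to 277 bases from a gene end. At Ndufa4l2 a gene end of Stac3 lay 355 bases away. Of these 4, Cyc1, Uqcrc2 and Atp5g2 had higher RNA in P6D4 and Ndufa4l2 had lower. With peaks of −log10 q of at least 10, Ndufa5 was the only member left in either list (1 of 96, 1.04%). Over protein-coding genes that share was 0.631% in the P6D4 list and 1.12% in the 70Z/3 list.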

How the data were processed

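RNA was measured in 3 libraries of each line. The authors deposited whole-number counts per Ensembl gene. TopHat2 2.0.10, Bowtie2 2.10, SAMtools, bedtools and HTSeq are named, with GRCm38 (mm10) as the build, per the submitters' processing notes. The kit keeps strand, per the labels' protocols; the strand setting of counting is not stated. HTSeq's summary lines were left out. Peaks were called with MACS 2.0.10.20120913 at a q-value of 0.01 on 1 Miz1 library per line, per the file headers. The deposited pileup signal, fold (a ratio over local background) and −log10 p and q per peak are the authors' and were used within a list.

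Counts were filtered with filterByExpr, scaled by TMM and fitted over all genes with edgeR 4.0.16 (quasi-likelihood test, line as the only term; glmTreat against 2-fold; biological coefficient of variation 4.08%), in R 4.3.3. SE is the log2 fold change divided by the square root of F. CPM is counts per 1e6 of the library total over genes kept by the filter, multiplied by the library's TMM factor. All 6 count columns differed from each other. The code was tested on simulated data. Alternatives used DESeq2 1.42.0, other scalings, no filter, a block, each library left out, other windows and a stricter q. Of 38293 genes, 36345 had a symbol. Positions are RefSeq GRCm38.p6 gene bounds, and nuclear transcript lengths were not used, so levels of different nuclear genes are not compared. Intervals (scipy 1.17.1) cover counting error only. Histone ChIP and input samples were not used here. Figures used matplotlib 3.10.9.

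Members and lists were chosen with earlier results of these data known. Named genes are all mitochondrial members, the 3 highest and 3 lowest called of each complex, those over 2-fold, isoforms, those with a Miz1 summit, uncalled members, and the 2 most raised and 2 most lowered of each other list; further members are named for their role. A member and a gene of another list that this rule takes are not reported here.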

Additional observations from a re-analysis of the deposited data

How the results depend on the processing

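Of the 80 called members, 74 kept their call under all 13 alternatives for the RNA test and none of the 101 changed direction while called. Atp5g1, Atp5k, Cycs, Ndufa2, Ndufb6 and Uqcrc1 lost it in some, and 7 uncalled members, among them mt-Co1 (library totals only, and without P6D4 replicate 3), gained it in some. With no filter on low counts, mitochondrial members lower in P6D4 went from 1 to 2 (mt-Nd3 added, adjusted p = 0.00195) and members over 2-fold lower from 2 to 4 (Cox4i2 and mt-Nd3 added), since more genes are tested. Leaving out 1 library gave 53 to 60 higher members and 22 to 24 lower. With reads outside genes and ambiguous reads in the total, the mitochondrial share was 2.01% in P6D4 and 1.84% in 70Z/3. Members with a Miz1 summit within 5 kb numbered 2 of 96 in the P6D4 list (2.08%, against 4.21% of protein-coding genes). In the 70Z/3 list they numbered 10 of 96 (10.4%, interval 5.11 to 18.3%, against 6.51% of genes). With −log10 q of at least 10 the 70Z/3 list had 1 (1.04%, against 1.12%). Within 1 kb of a start site, an alternative added after seeing the data, it had 2 of 77 (2.6%, against 2.8%). Replicate numbers were not used to pair the samples. Same-numbered libraries had residual correlations of -0.0281, -0.0211 and 0.00329, not each the highest for its number. With 3 libraries per line, these correlations cannot settle whether same-numbered libraries were handled together. With the replicate number as a block, 56 members were higher and 22 lower. Without the nuclear members of chromosomes 10 and 15, also added after seeing the data, the ratio of mitochondrial to nuclear member counts was 2.34 in P6D4 and 2.35 in 70Z/3, where all members gave 1.63 and 1.91. Few counts limit Cox4i2 and Ndufa4l2; why mt-Co2 to mt-Nd4l have so few was not tested.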
